A study of Mus musculus with 3 samples.

Results

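Chemokines are small secreted proteins that guide the movement of leukocytes and other cells. The 10 measured here were Ccl2, Ccl3, Ccl4, Ccl5, Ccl7, Ccl12, Cxcl1, Cxcl2, Cxcl5 and Cxcl12. All were taken by name from the 31053 genes of the count tables, with earlier results of these data known. They were followed across 7 cell classes of the aged mouse hippocampus: microglia, border macrophages, astrocytes, endothelial cells, ependymal cells, pericytes and fibroblasts. The cells came from the hippocampi of wild-type (WT) C57BL/6 mice that the labels call 2 years old. They were released with papain, cleared of myelin with beads and loaded for 3′ sequencing of single cells on the 10x Chromium system. The series compared no treatments or genotypes. Its 3 libraries form 1 group, called libraries 1, 2 and 3, and the comparisons are between cell classes within them. Library 3 carries 25 months in its title but the same age label as libraries 1 and 2. The 6 hippocampi that the series text mentions are not tied to single libraries by any label, so every p-value below measures the spread between these libraries only.

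Chemokines fall into the CC and CXC families by the spacing of their first cysteines, and they act through G protein-coupled receptors on the responding cell. Ccl2, Ccl7 and Ccl12 signal through Ccr2 and recruit monocytes. Ccl3, Ccl4 and Ccl5 attract macrophages and T cells, and Ccl3 and Ccl5 do so in part through Ccr1. Cxcl1, Cxcl2 and Cxcl5 signal through Cxcr2 and recruit neutrophils. Cxcl12 acts on Cxcr4 and is taken up by the scavenger receptor Ackr3. It is made in steady state, whereas most of the others are known as genes induced through NF-kB in inflamed or injured tissue.

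A cell was placed in a class when at least 3 genes of that class's marker list were detected and no other list came close, so the class names stand for marker detection and not for sorted cells. No chemokine was used as a marker. The 7 classes held 10000 of the 12115 cells kept, out of 14759 deposited barcodes. Library 1 gave 859 microglia, 93 border macrophages, 1483 astrocytes, 2472 endothelial cells, 216 ependymal cells, 73 pericytes and 22 fibroblasts. Library 3 gave 795, 36, 847, 1876, 379, 77 and 13 of the same classes in that order. Library 2 was much smaller, with 95, 5, 113, 497, 25, 17 and 7, and its border macrophages and fibroblasts were too few for a profile, so these classes rest on libraries 1 and 3. Few neurons survived the preparation: the neuronal markers placed 13, 4 and 3 cells. The libraries held 45716237, 7185668 and 40377042 unique molecular identifiers (UMIs), each counting 1 captured RNA molecule, with a median of 5075, 3782 and 4550 per barcode. They shared between 2 and 12 cell barcodes, and haemoglobin RNA made up 0.749%, 2.01% and 1.23% of their UMIs.

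Levels are UMIs of a gene per 1000000 UMIs of a class in a library (CPM), given as mean ± SD over libraries, and are compared only within a gene. A share is the percentage of cells with at least 1 UMI of the gene. As shares rise with the depth of a cell, they are also given after thinning every cell to 1000 UMIs, which leaves out shallower cells. Differences between classes were tested on counts summed per class and library with edgeR's quasi-likelihood test, with the library as a block, over 12305 genes and 21 pairs of classes, and called at a Benjamini-Hochberg adjusted p under 0.05. All 10 chemokines passed the filter on low counts, which keeps a gene that is well counted in any class.

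In the mm10 assembly with the GENCODE M21 annotation, 6 of the genes lie on chromosome 11 in 2 groups: Ccl2 (82035571 to 82037453), Ccl7 (82045712 to 82047525) and Ccl12 (82101845 to 82103400), then Ccl5 (83525778 to 83530518), Ccl3 (83647844 to 83649355) and Ccl4 (83662584 to 83664683). Cxcl5 (90759360 to 90761624), Cxcl1 (90891241 to 90893115) and Cxcl2 (90903871 to 90905938) lie together on chromosome 5, and Cxcl12 (117168535 to 117181367) lies alone on chromosome 6. All are protein-coding. No 2 of the genes share a run of 30 bases in their transcripts, and the longest shared run was 23 bases, for Ccl2 with Ccl7 and for Cxcl1 with Cxcl2. Ccl2 overlaps the gene model Gm17268 on the opposite strand.

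The chemokines differed between many pairs of classes. Across the 21 pairs of classes, 129 of the 210 tests of a chemokine passed (61.4%), against 37.5% of the tests of all genes, and 138 passed at an unadjusted p under 0.05. As the genes were chosen with earlier results of these data known, and the pairs share classes, these shares are a description only. Microglia gave the largest share of their RNA to them: the 10 genes together held 4.86%, 4.54% and 2.13% of microglial UMIs in libraries 1, 2 and 3. Border macrophages followed with 1.87% and 1.01%, then fibroblasts with 0.675% and 0.523% and endothelial cells with 0.265%, 0.277% and 0.278%. In astrocytes they held 0.0472%, 0.0364% and 0.0571%. The microglial share was the lowest in library 3, whereas the endothelial share was nearly equal in all 3 libraries.

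**Figure D1:**
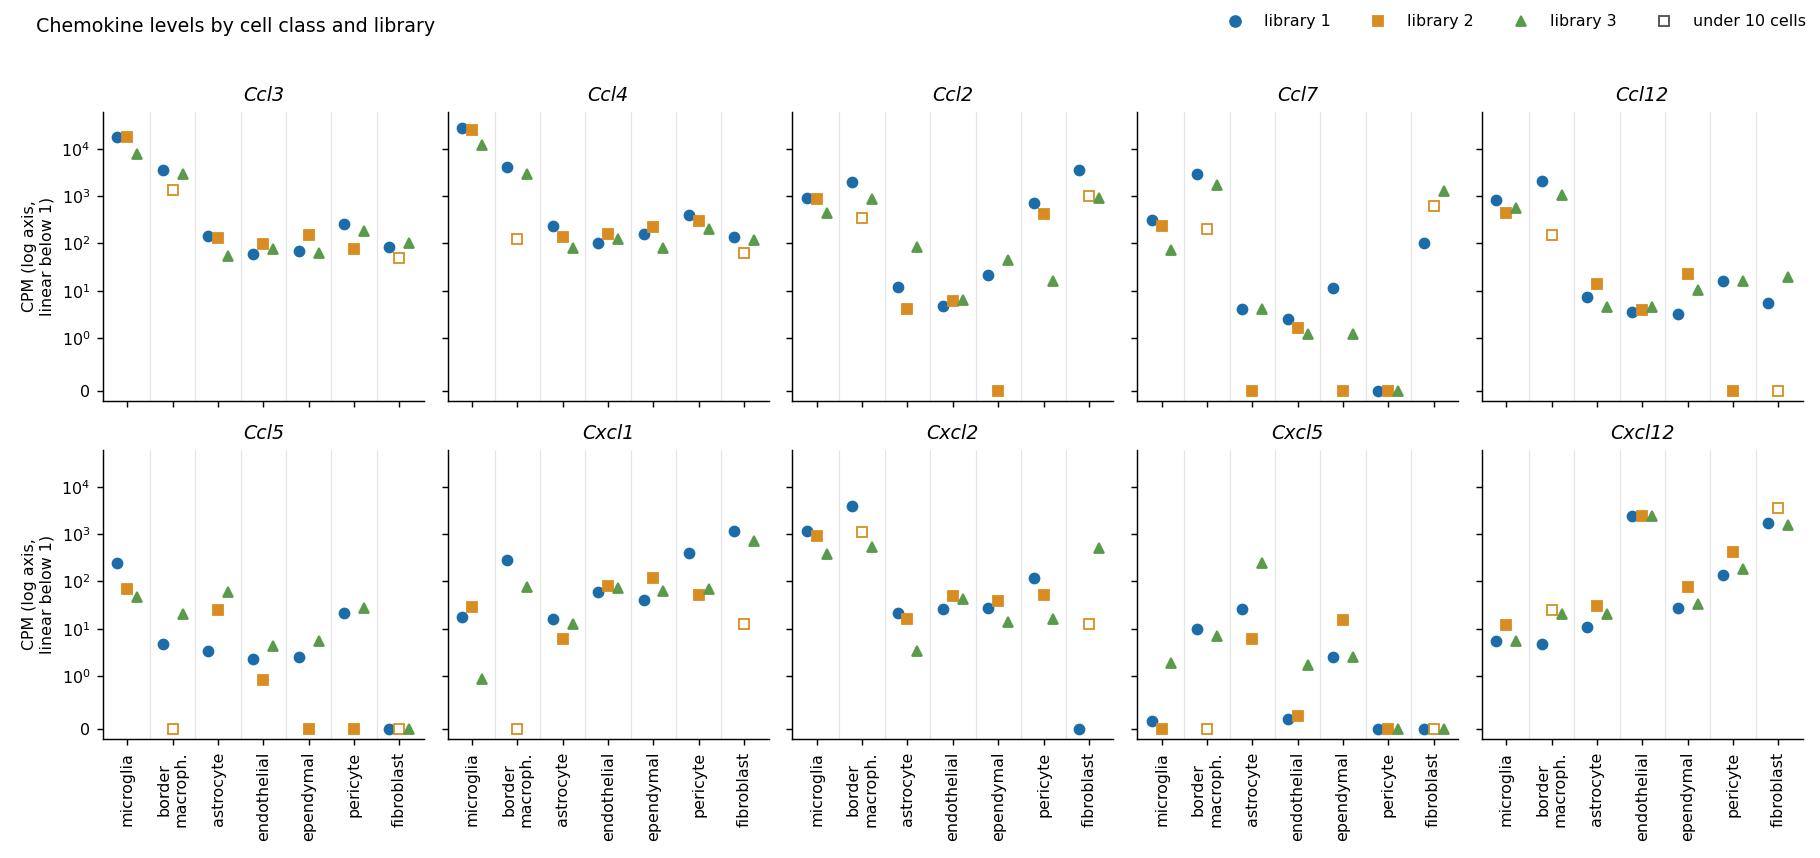
Level of each chemokine (CPM, log axis, linear below 1) in each cell class, with 1 point per library and open squares for under 10 cells. Ccl3 and Ccl4 peak in microglia, Cxcl12 in endothelial cells and fibroblasts, and Cxcl5 in astrocytes of library 3.

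Ccl3 and Ccl4, attractants of macrophages and T cells, were microglial. Ccl3 stood at 17531, 17752 and 7853 CPM in microglia, a mean of 14378 ± 5653 (SD, n = 3). It was detected in 95.2%, 88.4% and 85.5% of microglia, and in 89.6%, 85.1% and 71.8% after thinning. Libraries 1 and 2 lay close together and library 3 was lower, yet its microglia were still above every other class of any library.

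Ccl4 stood at 27635, 25144 and 11932 CPM in microglia, with the same library lowest. Border macrophages held 3504 and 2868 CPM of Ccl3, and 4119 and 2952 of Ccl4; the 5 untested border macrophages of library 2 held 1332 and 126. Microglia exceeded border macrophages 5.03-fold for Ccl3 (log2 2.33, SE 0.39, edgeR adjusted p = 4.51e-05) and 6.90-fold for Ccl4 (log2 2.79, SE 0.35, adjusted p = 5.24e-07), in 2 of 2 shared libraries. The groups did not overlap for either gene. Border macrophages in turn exceeded pericytes, the next class, 25.5-fold for Ccl3 (edgeR adjusted p = 1.2e-10).

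Below the macrophages the order of classes was mostly unresolved. Mean levels of Ccl3 were 172 ± 90.1 in pericytes, 108 ± 46.0 in astrocytes, 94.7 ± 48.7 in ependymal cells and 78.4 ± 20.4 in endothelial cells (SD, n = 3), with 91.9 ± 11.7 in fibroblasts (SD, n = 2), and no neighbours in that order differed. The same held for Ccl4 except that pericytes (301 ± 95.6) exceeded ependymal cells (151 ± 69.8) with an edgeR adjusted p of 0.0292, which rose to 0.151 without the library block, 0.104 with a stricter cell filter and 0.159 with doublets kept. Even so, 41.9%, 34.5% and 29.5% of astrocytes had a Ccl3 UMI. After thinning these were 16.5%, 16.5% and 8.62%, against 8.42%, 11.6% and 8.30% of endothelial cells, so that astrocytes were above endothelial cells in libraries 1 and 2 and close to them in library 3.

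These low levels were of the size of those of other microglial RNA. Set against microglia of the same library, Ccl3 and Ccl4 stood at 0.335% to 2.28% of the microglial level in the 5 classes other than macrophages. The medians of 6 genes of microglia and macrophages (the complement genes C1qa, C1qb and C1qc, the protease Ctss, the receptor Csf1r and the adaptor Tyrobp) stood at 0.344% to 2.15% in the same profiles. In astrocytes of library 1, for example, Ccl3 was at 0.803% and Ccl4 at 0.833%, against a median of 0.894% and a range of 0.663% to 1.51% for the 6 genes. Not every profile lay within the range of the 6 genes. In library 2 both chemokines were below it in astrocytes (0.718% and 0.539%, lowest of the 6 genes 0.835%) and in endothelial cells (0.561% and 0.618%, lowest 0.626%), and Ccl4 was above it in pericytes (1.19%, highest 1.15%). In library 3 Ccl4 was below it in ependymal cells (0.664%, lowest 0.734%). In border macrophages the picture differed: Ccl3 was at 20.0% and 36.5% and Ccl4 at 14.9% and 24.7% of the microglial level, below the medians of 73.5% and 66.5%. Whether the low levels outside the macrophages stem from the cells' own transcription was not tested.

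**Figure D2:**
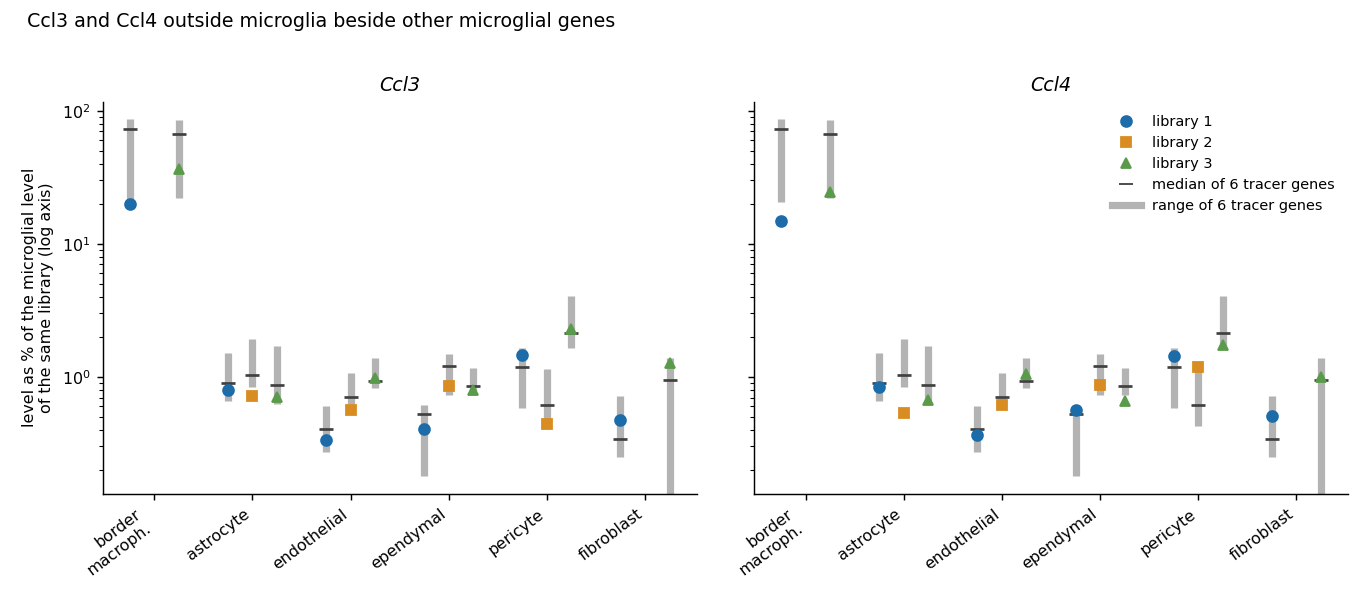
Level of Ccl3 and Ccl4 in each class as a percentage of the microglial level of the same library (log axis), beside the median (dash) and range (grey) of 6 other genes of microglia and macrophages, the tracer genes of the legend. Outside border macrophages the chemokines lie between 0.335% and 2.28%, in most profiles within the range of the 6 genes.

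Within microglia, Ccl3 and Ccl4 were spread over many cells. The cells that together held 50% of the Ccl3 UMIs numbered 156 of 859, 17 of 95 and 94 of 795. Positive microglia held a median of 99.0, 104 and 39.0 Ccl3 UMIs. In endothelial cells, by contrast, the median positive cell held 1 UMI. A single endothelial cell of library 3 carried 269 Ccl3 UMIs and 548 Ccl4 UMIs, or 26.7% and 33.6% of the endothelial total, and had 4 microglial markers beside 8 endothelial ones.

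Ccl2, Ccl7 and Ccl12, the monocyte attractants, were genes of border macrophages as much as of microglia. Ccl12 stood at 2100 and 1042 CPM in border macrophages and at 829, 433 and 559 in microglia. It was detected in 67.7% and 58.3% of border macrophages and 72.5%, 62.1% and 60.1% of microglia. In the profiles tested the 2 classes did not overlap. Border macrophages were 2.02-fold higher (edgeR adjusted p = 0.0434), a call that ended in 6 alternatives. The 5 untested border macrophages of library 2 lay below every microglial value. Without library 1 the log2 difference was 0.64 (adjusted p = 0.447). Outside these classes Ccl12 was low, at most 22.6 CPM in any profile tested, and microglia exceeded endothelial cells 195-fold (edgeR adjusted p = 6e-17).

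Ccl7 was highest in border macrophages, at 2935 and 1702 CPM. Microglia held 319, 235 and 71.8, and the difference was 9.54-fold (log2 3.25, SE 0.60, edgeR adjusted p = 0.000191). The values tested did not overlap, and libraries 1 and 3 showed the same direction. The 5 border macrophages of library 2, not tested, lay below the microglia of that library. With DESeq2 the call was lost (log2 3.20, adjusted p = 0.071). In pericytes no Ccl7 UMI was seen in any library, which allows up to 16.1, 39.1 and 16.3 CPM by a limit of 3 counts.

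Fibroblast Ccl7 differed between libraries. It was 100 CPM in library 1 and 1302 in library 3, so fibroblasts lay below microglia in the former and above them in the latter. Over both libraries the log2 difference of fibroblasts from microglia was 0.95 (edgeR adjusted p = 0.349). Without library 3 it turned to -2.39 (adjusted p = 2.64e-06), and without library 1 it was 2.87 (adjusted p = 1.55e-06). In library 3 a single fibroblast carried 63 of the Ccl7 UMIs (96.9%), and without it the level there was 50.3 CPM. The excess of border macrophages over fibroblasts was 4.94-fold (edgeR adjusted p = 0.0161), and without library 1 its log2 size fell to 0.98 (adjusted p = 0.253). DESeq2 did not call it (adjusted p = 0.365).

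Ccl2 was carried by 4 classes. Fibroblasts held 3558 and 901 CPM, border macrophages 1962 and 861, and microglia 892, 881 and 451, with no neighbour in this order differing (edgeR adjusted p = 0.963 and 0.755). Pericytes held 731, 430 and 16.3 CPM. Microglia exceeded them 3.69-fold (edgeR adjusted p = 0.0288). That call was lost without the library block (adjusted p = 0.0802), without library 2 (0.0764), with RLE scaling (0.0515), at 20 cells per profile (0.0965) and with DESeq2 (0.285). Pericytes exceeded endothelial cells, which stood at 5.71 ± 0.82 (SD, n = 3), 46.6-fold (log2 -5.54 for endothelial cells minus pericytes, SE 0.81, adjusted p = 1.91e-06).

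The Ccl2 of pericytes and fibroblasts sat in very few cells. In pericytes it was detected in 8 of 73, 2 of 17 and 3 of 77 cells. Fibroblasts also hold Ccl2, and in library 1 a fibroblast marker was met in 75.0% of the Ccl2-positive and 46.2% of the other pericytes, and 2 such markers in 12.5% and 4.62%. In library 3 the shares were 33.3% against 45.9% for 1 marker or more and 33.3% against 10.8% for 2. The positive pericytes were deeper, with medians of 4233 against 2377 UMIs in library 1 and 3262 against 2161 in library 3, and the part of either in the Ccl2 of pericytes was not tested. Of the pericyte UMIs, 1 cell held 47.1% in library 1 and 97.0% in library 2, and without it the levels were 402 and 14.7 CPM. Among fibroblasts 1 cell held 67.6% in library 1 and 91.1% in library 3, and without it the levels were 1262 and 101. In microglia, by comparison, the highest cell held 2.44%, 13.2% and 2.86% of the Ccl2 UMIs.

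The fibroblast that held most of the Ccl2 and Ccl7 of library 3 was the same cell. It had 10147 UMIs, 6 fibroblast markers, 2 microglial markers and no marker of border macrophages, and it also held all 35 Cxcl1 and all 25 Cxcl2 UMIs of the library's fibroblasts. For these 4 genes the fibroblast values of library 3 thus describe little more than 1 cell of 13.

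Astrocytes held 12.1, 4.04 and 83.7 CPM of Ccl2, and those of library 3 stood apart from the rest. The pooled excess over endothelial cells was 7.50-fold (edgeR adjusted p = 0.000965). It was seen in 2 of 3 libraries, and without library 3 the log2 difference fell to 0.70 (adjusted p = 0.116). With DESeq2 the adjusted p was 0.0552. Ccl2 reached 8.62% of the astrocytes of library 3 (3.42% after thinning), and 4 cells held 50% of its UMIs.

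Between microglia and border macrophages the chemokines split almost evenly. In that comparison 3 were higher in microglia (Ccl3, Ccl4 and Ccl5), where 9% of all genes tested were, and 4 in border macrophages (Ccl7, Ccl12, Cxcl1 and Cxcl5), where 4.99% were. The 4 were 2 without the library block and 1 with DESeq2, and 2 to 5 with a library left out. For Cxcl5 the call rested on 7 UMIs in border macrophages and 13 in microglia. It was lost without the library block (edgeR adjusted p = 0.443) and with DESeq2 (adjusted p = 0.0916). The median log2 difference, microglia minus border macrophages, was -0.76 for the chemokines and 0.29 for all genes. Between border macrophages and fibroblasts, 5 were higher in the former (Ccl3, Ccl4, Ccl7, Ccl12 and Cxcl2; 10.2% of all genes) and 2 in the latter (Cxcl1 and Cxcl12; 9.25%). With DESeq2 these were 3 and 1. Here the median was 4.58 as fitted and 1.05 with genes at 0 set to their limit, against 0.01 for all genes.

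Set against astrocytes and endothelial cells, microglia had 7 chemokines higher in either comparison (Ccl2, Ccl3, Ccl4, Ccl5, Ccl7, Ccl12 and Cxcl2), where 30.1% and 28.0% of all genes were. Astrocytes had 2 higher than microglia (Cxcl5 and Cxcl12; 36.8% of all genes), and endothelial cells had 2 (Cxcl1 and Cxcl12; 28.6%). Astrocyte Cxcl12 was low, at 20.5 CPM against 7.57 in microglia, and its call was lost without library 3 (log2 0.51, edgeR adjusted p = 0.282). It stood at 0.450%, 1.28% and 0.839% of the endothelial level of the same library. The medians of 6 other endothelial genes were 0.737%, 2.26% and 0.556%. Their part in astrocyte Cxcl12 was not tested. The median log2 excess in microglia was 5.28 over astrocytes and 6.64 over endothelial cells, with -0.17 and -0.01 for all genes.

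The neutrophil attractants Cxcl1, Cxcl2 and Cxcl5 parted company with each other. Cxcl2 went with the macrophages: it stood at 3825 and 535 CPM in border macrophages and at 1160, 890 and 372 in microglia. Those ranges overlapped, and the 2.18-fold difference did not pass (edgeR adjusted p = 0.28). It passed without library 3 (log2 1.74, adjusted p = 1.11e-05) and without the filter on low counts (log2 0.94, adjusted p = 0.0209). Microglia exceeded endothelial cells, at 26.0, 50.1 and 42.9 CPM, 22.9-fold in 3 of 3 libraries (edgeR adjusted p = 1.87e-07).

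Cxcl2 was found in a minority of microglia. It was detected in 35.0%, 22.1% and 18.0% of them, and 30, 3 and 13 cells held 50% of its UMIs. Fibroblasts of library 1 had no Cxcl2 UMI, and those of library 3 had 501 CPM from the single cell described above. The excess of microglia over fibroblasts (6.76-fold, edgeR adjusted p = 0.0203) fell to a log2 of 0.71 (adjusted p = 0.38) without library 1, and DESeq2 did not call it (adjusted p = 0.406).

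Cxcl1 had a different order of classes. It was highest in the fibroblasts of libraries 1 and 3, at 1132 and 701 CPM. They were 10.1-fold above endothelial cells (log2 3.33, SE 0.54, edgeR adjusted p = 1.53e-05). Their excess over border macrophages was 3.44-fold (adjusted p = 0.0346, or 0.12 without the library block and 0.155 with DESeq2). The 7 untested fibroblasts of library 2 lay below the endothelial cells of that library. Border macrophages held 283 and 76.4, pericytes 403, 52.1 and 70.6, and ependymal cells 40.3, 121 and 62.9 CPM. These classes overlapped, and no neighbours from border macrophages down to endothelial cells differed. The 1 Cxcl1-positive fibroblast of library 3 was 1 of 13, whereas in library 1 Cxcl1 was found in 9 of 22 fibroblasts.

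Endothelial Cxcl1 was even across libraries, at 58.4, 79.5 and 73.6 CPM, in 12%, 12.9% and 12.3% of cells. Thinning left 3.02%, 2.50% and 4.21%. It exceeded microglia 5.02-fold (log2 2.33, SE 0.51, edgeR adjusted p = 0.000203) and astrocytes 5.18-fold (log2 2.37, SE 0.49, adjusted p = 8.45e-05), in 3 of 3 libraries each. Microglia held only 17.4, 29.4 and 0.94 CPM. The level of library 2's endothelial cells leaned on 1 cell with 110 Cxcl1 and 113 Cxcl2 UMIs, without which it was 54.7 for Cxcl1 and 24.3 for Cxcl2.

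Cxcl5 was an astrocyte gene and had a larger SD relative to its mean than any other chemokine in its leading class. Astrocytes held 26.3, 6.07 and 247 CPM, a mean of 93.2 ± 134 (SD, n = 3). It was detected in 4.72% of the astrocytes of library 1 (exact 95% interval in the plot of shares by library), 1.77% of library 2 and 20.8% of library 3. After thinning the shares were 1.28%, 1.18% and 10.1%. Library 3 stood far above the others in level and in share. What sets library 3 apart was not tested, and its title alone names an age of 25 months.

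The astrocyte excess was nonetheless seen in every library against the large classes, although library 2 held only 7 Cxcl5 UMIs over all barcodes. Astrocytes exceeded microglia 93.5-fold (edgeR adjusted p = 1.87e-12) and endothelial cells 128-fold (adjusted p = 1.96e-14), in 3 of 3 libraries. Against border macrophages, where 7 UMIs were counted in all, the 6.86-fold excess (adjusted p = 0.00073) fell to a log2 of 0.89 without library 3 (adjusted p = 0.377), and DESeq2 did not call it (adjusted p = 0.297). Ependymal cells stood at 9.39%, 249% and 1.01% of the astrocyte level in libraries 1, 2 and 3, so those of library 2 lay above its astrocytes. No UMI was seen in pericytes or in fibroblasts.

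Few astrocytes carried most of the Cxcl5. The cells that held 50% of its UMIs numbered 7 in library 1 and 11 in library 3, and the highest cell held 17.0% and 9.01%. Positive cells were deeper than negative cells, with a median of 6983 against 3090 UMIs in library 1 and 10616 against 3411 in library 3. At equal depth, astrocytes with more Gfap RNA, the intermediate filament gene of reactive astrocytes, than the median had Cxcl5 more often than the rest. The shares were 2.14% of 420 against 0.844% of 829 cells in library 1, 3.70% of 27 against 0% of 58 in library 2, and 16.5% of 279 against 6.20% of 452 in library 3. In library 3, Ccl2 was found in 12.2% of the Cxcl5-positive and 2.44% of the other astrocytes after thinning.

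**Figure D3:**
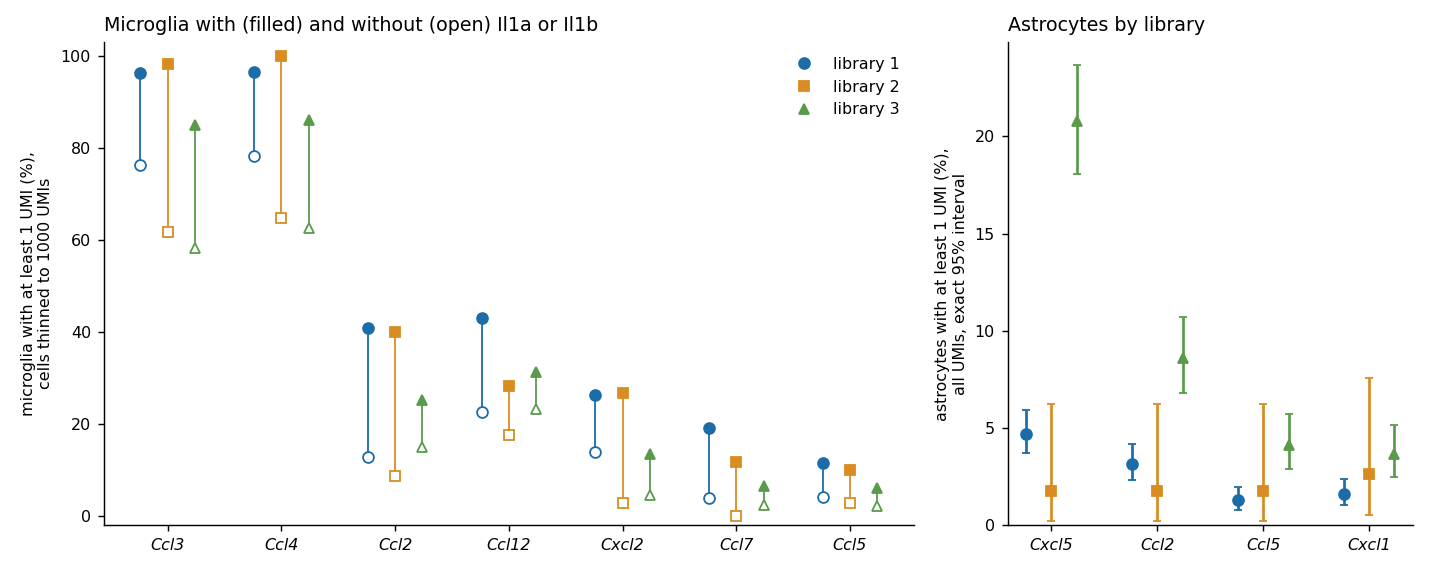
Left, share of microglia with each chemokine among cells with (filled) and without (open) Il1a or Il1b RNA, each cell thinned to 1000 UMIs, by library. Right, share of astrocytes with 4 chemokines by library with exact 95% binomial intervals, where Cxcl5 reaches 20.8% in library 3 against 4.72% and 1.77%.

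Ccl5 was microglial at a modest level, with 242, 70.6 and 47.5 CPM in 19.8%, 9.47% and 11.7% of microglia. Library 1 stood above the other two. Only 15, 2 and 10 microglia held 50% of its UMIs. Markers of T and NK cells, which carry Ccl5 at 3935 and 5311 CPM in libraries 1 and 3, were met in 3.53%, 11.1% and 5.38% of Ccl5-positive and in 4.06%, 0% and 3.85% of Ccl5-negative microglia, and no microglial cell had 2 of them. Microglia exceeded endothelial cells 70.8-fold in 3 of 3 libraries (edgeR adjusted p = 1.1e-09).

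Astrocytes held 3.44, 24.3 and 59.6 CPM of Ccl5, so that those of library 3 lay above its microglia. Of the astrocyte UMIs in library 3, 1 cell with no microglial and no T cell marker held 39.0%, and without it the level was 36.4. Over all libraries microglia exceeded astrocytes 7.13-fold (edgeR adjusted p = 0.000237), in 2 of 3 libraries, and without library 1 the log2 difference fell to 0.73 (adjusted p = 0.0556). In library 3 only 35.5% of all Ccl5 UMIs lay in the 7 classes, the lowest value of any chemokine and library.

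Between astrocytes and endothelial cells, 3 chemokines were higher in astrocytes (Ccl2, Ccl5 and Cxcl5), where 35.1% of all genes were, and 3 in endothelial cells (Cxcl1, Cxcl2 and Cxcl12), where 30.1% were. Their median log2 difference was 0.51, and that of all genes 0.09. Astrocyte Cxcl2 was 21.4, 16.2 and 3.44 CPM, and endothelial cells exceeded it 3.72-fold (edgeR adjusted p = 0.0112), which was 0.0815 without the library block and 0.161 with DESeq2. In library 1 a single astrocyte held 51.0% of that Cxcl2.

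Cxcl12 was the vascular chemokine and the steadiest of the set. Endothelial cells held 2392, 2375 and 2442 CPM, a mean of 2403 ± 34.7 (SD, n = 3), in 95.9%, 90.5% and 95.6% of cells. Thinned shares were 80.2%, 77.0% and 82.0%. Its UMIs were spread widely, with 511, 72 and 404 endothelial cells needed for 50% of them.

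Fibroblasts held 1734 and 1582 CPM of Cxcl12 and had it in 22 of 22 and 12 of 13 cells. The 1.60-fold excess of endothelial cells over them did not pass (log2 0.67, SE 0.31, edgeR adjusted p = 0.128), although the tested values did not overlap. The 7 untested fibroblasts of library 2 stood at 3470 CPM, above every endothelial value. Without library 2 the log2 difference was 0.95 (adjusted p = 0.0487). Pericytes held 134, 417 and 185, and lay 9.50-fold below fibroblasts (adjusted p = 3.39e-08) and 15.2-fold below endothelial cells (adjusted p = 9.74e-12). Ependymal cells, at 45.0 ± 26.4, were 4.81-fold below pericytes (adjusted p = 4.05e-06), and endothelial cells exceeded microglia 272-fold (adjusted p = 2.28e-18).

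Between endothelial cells and pericytes few of the set were called. Cxcl12 was the 1 chemokine called higher in endothelial cells than in pericytes, where 16.3% of all genes were higher, and Ccl2 the 1 called higher in pericytes, where 11.3% were. The latter count was 3 with RLE scaling, 2 without the filter on low counts, 2 at 20 cells per profile, 4 with DESeq2 and 1 to 4 with a library left out. By edgeR, and by DESeq2, 0 chemokines were higher in endothelial cells than in fibroblasts (12.4% of all genes), and 3 were higher in fibroblasts (Ccl2, Ccl7 and Cxcl1; 9.31%). At an unadjusted p under 0.05, 4 of the 10 differed in that last comparison, and without the filter on low counts in edgeR Cxcl12 passed as higher in endothelial cells. Median log2 differences were -0.80 over pericytes and -0.24 over fibroblasts as fitted, -1.11 and -1.99 with genes at 0 set to their limit, and 0.23 and 0.45 for all genes.

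Endothelial cells were divided by arterial (Bmx, Gkn3, Sema3g, Vegfc), capillary (Mfsd2a, Rgcc, Spock2, Slc16a1) and venous genes (among them Slc38a5, Nr2f2 and Il1r1), none of which is a chemokine. Libraries 1, 2 and 3 held 166, 27 and 114 arterial, 1820, 354 and 1371 capillary, and 70, 9 and 67 venous cells. The other 416, 107 and 324 endothelial cells were placed in no division and entered none of these tests. The 9 venous cells of library 2 entered no test, and 5 chemokines passed the filter among 9552 genes.

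Cxcl12 was graded along this axis. Capillary cells held 2950, 2736 and 2924 CPM, arterial cells 1293, 1924 and 1085, and venous cells 693 and 634. The 3 sets of values did not overlap, although the 9 untested venous cells of library 2, at 1226, lay within the arterial range. Capillary cells exceeded arterial cells by a log2 of 1.03 (SE 0.13, edgeR adjusted p = 4.77e-06) and venous cells by 2.02 (SE 0.15, adjusted p = 2.62e-08), and arterial exceeded venous cells by 0.99 (SE 0.15, adjusted p = 9.93e-05). The median depth of capillary, arterial and venous cells was 6707.5, 8828 and 12874.5 UMIs in library 1, the reverse of the order in Cxcl12. It was 6758, 11558 and 5821 in library 2 and 5432, 8362 and 6879 in library 3, and its part was not tested.

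Cxcl1 was highest in venous cells. Venous cells held 195 and 274 CPM, in 50% and 44.8% of cells, against 38.9, 44.5 and 45.6 in capillary and 34.6, 14.1 and 99.7 in arterial cells. Venous cells lay above every capillary and arterial value. The excess was a log2 of 2.39 over capillary (SE 0.22, edgeR adjusted p = 3.47e-07) and 2.04 over arterial cells (SE 0.26, adjusted p = 9.54e-06). The 9 venous cells of library 2, not tested, stood at 243. Endothelial cells of no division stood at 93.9, 209 and 114 CPM. They held more Cxcl1 UMIs than venous cells in each library (426, 179 and 278 against 218, 26 and 170). In library 2, 1 such cell held 110 of the 179.

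Cxcl2 followed Cxcl1, with 70.6 and 116 CPM in venous, 19.7, 17.9 and 39.1 in capillary and 21.1, 56.3 and 12.2 in arterial cells. Venous cells exceeded capillary cells by a log2 of 1.78 (SE 0.28, edgeR adjusted p = 0.000263) and arterial cells by 1.93 (SE 0.36, adjusted p = 0.000693). Without library 1 these adjusted p-values were 0.0848 and 0.0677, at differences of 1.76 and 2.09. The 9 untested venous cells of library 2 had a single Cxcl2 UMI, or 9.36 CPM. Endothelial cells of no division stood at 35.9, 166 and 51.6 CPM, in library 2 with 113 of 142 UMIs from 1 cell.

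In single endothelial cells the 2 genes also met. Cxcl2 was found in 9.72%, 18.2% and 16.0% of Cxcl1-positive and 1.38%, 1.63% and 1.70% of other endothelial cells after thinning. The Cxcl1-positive cells numbered only 72, 11 and 75. Cxcl12, in contrast, was found in 69.4%, 72.7% and 66.7% of the Cxcl1-positive and 80.5%, 77.2% and 82.7% of the other cells.

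The Ccl3 and Ccl4 of endothelial cells also differed by vessel type, with Ccl3 higher in capillary than in arterial cells by a log2 of 0.77 (edgeR adjusted p = 0.000889) and Ccl4 by 0.85 (adjusted p = 9.91e-05). Ccl3 was 65.2, 95.3 and 88.0 CPM in capillary cells and 39.3, 53.5 and 49.9 in arterial cells. The capillary level of library 3 includes the cell with 269 Ccl3 UMIs. Over venous cells capillary Ccl3 was higher by 0.82 (adjusted p = 0.00755), which was lost without library 3 (adjusted p = 0.274) and without the library block (adjusted p = 0.0606). The 6 genes of microglia and macrophages moved with these differences. Of the 6, 4 were higher in capillary than in arterial cells (median log2 -0.77 for arterial minus capillary), and 4 were higher in capillary than in venous cells (median 0.92). Their part in the Ccl3 and Ccl4 of capillary cells was not tested.

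Of the 5 chemokines tested, 0 were higher in arterial than in capillary cells by edgeR (9.85% of all genes were), with 3 called the other way (Cxcl12, Ccl3 and Ccl4; 7.52%) and the same 3 at an unadjusted p under 0.05. Ccl3 and Ccl4 are counted here beside the shift in the 6 macrophage genes just given. Cxcl12 was the 1 higher in arterial than in venous cells (8.42% of all genes), and Cxcl1 and Cxcl2 were the 2 higher in venous cells (7.66%). Between capillary and venous cells 3 were higher in capillary (Cxcl12, and, with the macrophage genes, Ccl3 and Ccl4; 4.24%) and 2 in venous cells (Cxcl1 and Cxcl2; 5.62%).

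**Figure D4:**
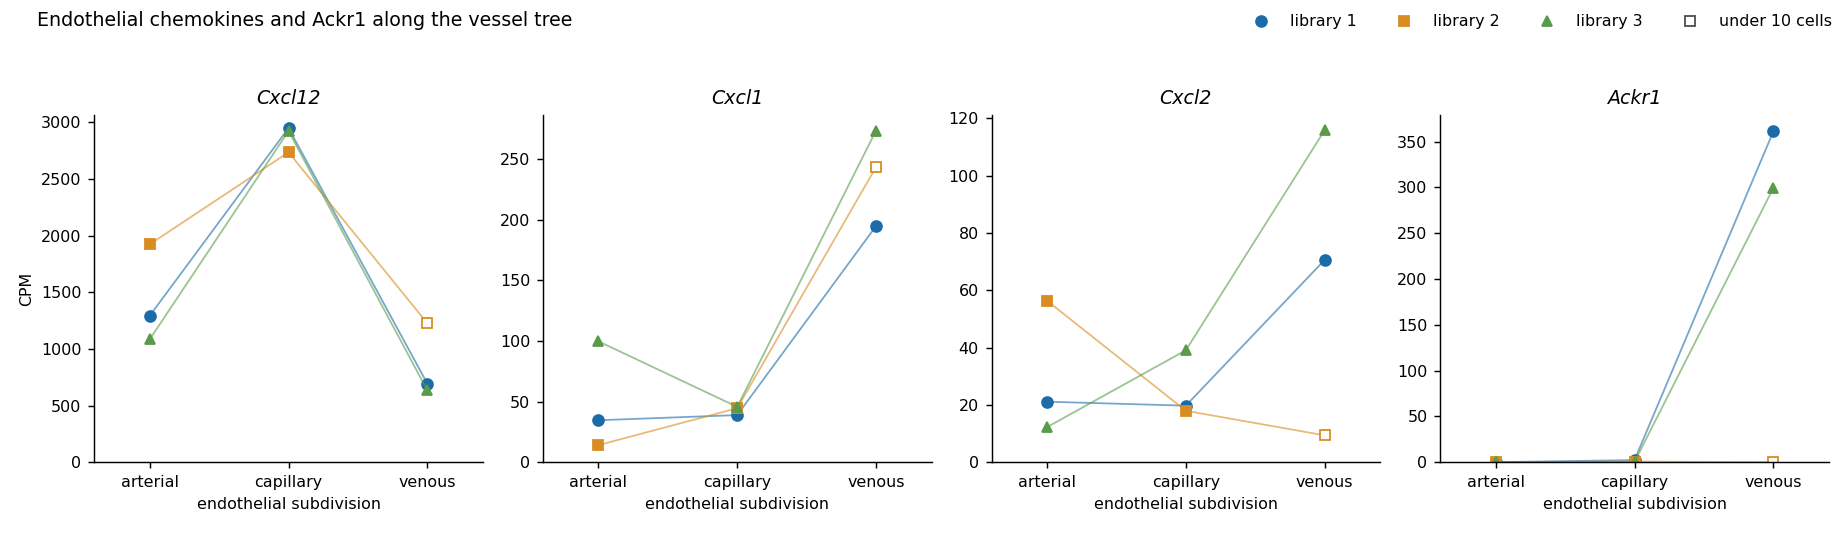
Levels (CPM) of Cxcl12, Cxcl1, Cxcl2 and the receptor gene Ackr1 in arterial, capillary and venous endothelial cells, with 1 point per library, lines joining the divisions of a library and open squares for under 10 cells. Cxcl12 is highest in capillary cells (2736 to 2950) and Cxcl1 in venous cells (195 and 274 in libraries 1 and 3).

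The promoters of the endothelial chemokines are shown because in libraries 1 and 3 Cxcl1 and Cxcl2 were higher, and Cxcl12 lower, in venous than in capillary and arterial cells. The RefSeq promoter table (GRCm38.p6) holds 5 of the 10 genes. The 120 bases before the first annotated start, all on the plus strand, lie at chr5:90891121-90891240 for Cxcl1, chr5:90903751-90903870 for Cxcl2 and chr6:117168415-117168534 for Cxcl12. Capitals mark a match to the NF-kB consensus.
Cxcl1: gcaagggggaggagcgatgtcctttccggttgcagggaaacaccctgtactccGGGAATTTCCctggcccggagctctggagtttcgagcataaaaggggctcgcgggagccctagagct
Cxcl2: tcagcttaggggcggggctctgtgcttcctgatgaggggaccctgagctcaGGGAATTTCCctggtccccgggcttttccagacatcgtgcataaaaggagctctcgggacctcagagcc
Cxcl12: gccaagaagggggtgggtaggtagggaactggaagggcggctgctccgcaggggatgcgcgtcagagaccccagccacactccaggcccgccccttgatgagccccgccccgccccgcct
The same 10 letters, GGGAATTTCC, begin 71 bases before the RefSeq start of Cxcl1 and 97 bases before that of Cxcl2. No match to the NF-kB consensus was found on either strand in the 300-base window of Cxcl12, Ccl3 or Ccl12. A TATAAA lies 31 bases before the start of Ccl12. The NF-kB consensus was searched on both strands and occurs in 5.80% of the 32851 promoter windows of that length, and TATAAA in 13.6%. A match describes the letters only and was not tested for binding.

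Ccl3 with Ccl4, and Ccl2 with Ccl7, were often found in the same macrophages. Ccl4 was found in 95.5%, 95% and 90.8% of Ccl3-positive microglia and in 47.7%, 42.9% and 33.2% of Ccl3-negative ones after thinning. Ccl7 was found in 27.5%, 25.9% and 8.44% of Ccl2-positive and 7.96%, 0% and 3.47% of Ccl2-negative microglia. In border macrophages the link of Ccl7 to Ccl2 was closer: 82.9% and 60.0% of Ccl2-positive against 13% and 8.70% of Ccl2-negative cells. These are shares of cells that come from 2 or 3 libraries and are descriptions.

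Microglia with RNA of the cytokines Il1a or Il1b had every one of 7 chemokines more often, in each library. Such cells numbered 561 of 843, 60 of 94 and 387 of 760 thinned microglia. Ccl3 was found in 96.3%, 98.3% and 85.0% of them and in 76.2%, 61.8% and 58.2% of the rest. For Ccl2 the shares were 40.8%, 40% and 25.3% against 12.8%, 8.82% and 15.0%.

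Ccl7 stood at 19.3%, 11.7% and 6.46% against 3.90%, 0% and 2.41%, the widest relative gap of the 7 in library 1. Cxcl2 stood at 26.4%, 26.7% and 13.4% against 13.8%, 2.94% and 4.56%. Ccl12 stood at 43.0%, 28.3% and 31.3% against 22.7%, 17.6% and 23.3%, and Ccl5 at 11.6%, 10% and 6.20% against 4.26%, 2.94% and 2.15%. Shares of Ccl3 and Ccl4 were already high in the cells without either cytokine.

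**Figure D5:**
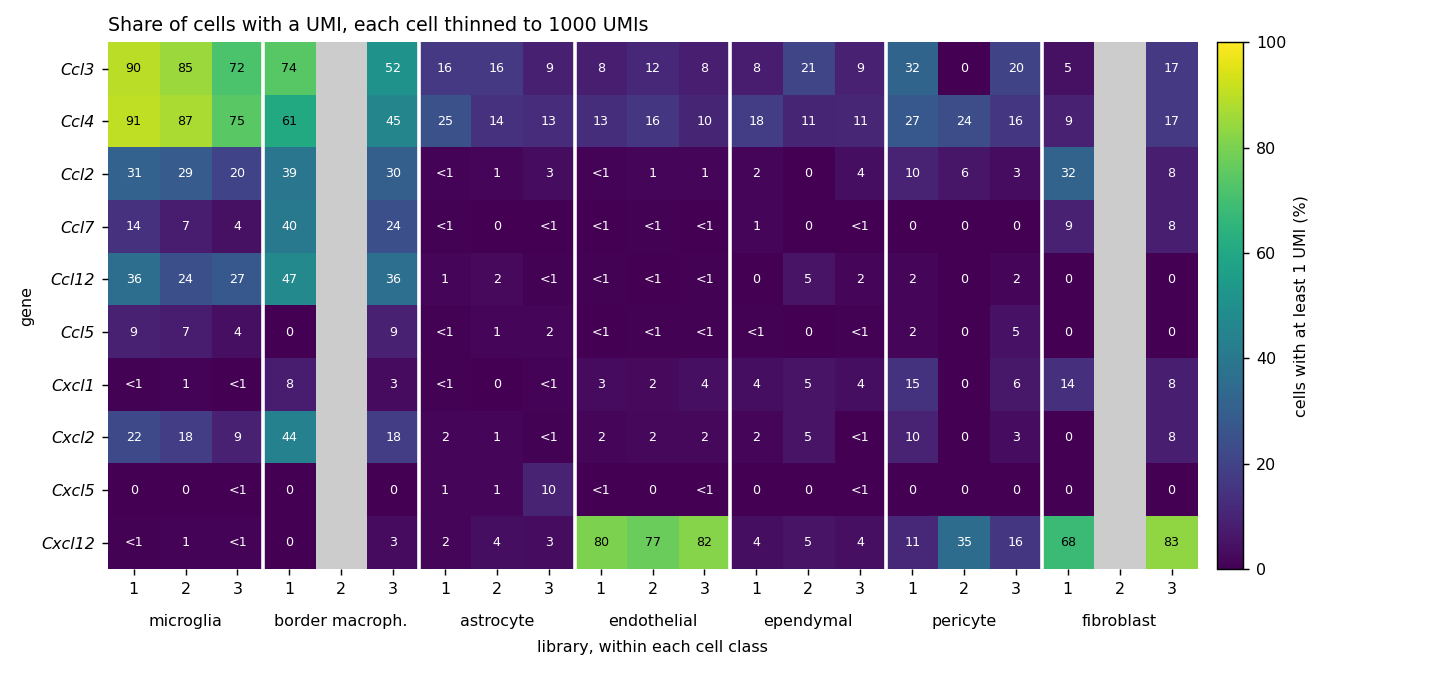
Share of cells with at least 1 UMI (percent, colour and number) of each chemokine after thinning every cell to 1000 UMIs, by class and library. Grey marks a library with under 10 cells of the class. Ccl3 and Ccl4 mark 71.8% to 90.5% of microglia, and Cxcl12 marks 77.0% to 82.0% of endothelial cells.

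The receptors for these ligands led in different classes. Of 23 chemokine receptors, those of other ligands included, 9 were abundant enough to test. Of these 4 were higher in microglia than in border macrophages (9% of all genes) and 2 in border macrophages (4.99%). Ccr1, which binds Ccl3, was 19.2-fold higher in border macrophages, at 332 ± 70.3 CPM (SD, n = 2) against 17.4 ± 8.5 in microglia (SD, n = 3; edgeR adjusted p = 1.69e-11).

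The receptors of the monocyte and neutrophil attractants were close to 0 in the 7 classes. Ccr2, the receptor of Ccl2, had a mean of at most 1.21 CPM in any class, and Cxcr2, the receptor of Cxcl1 and Cxcl2, of at most 2.12. Of the receptors of Cxcl12, Cxcr4 stood at 84.1 ± 23.8 in ependymal cells, 23.6-fold above endothelial cells (edgeR adjusted p = 9.29e-15), and at 77.3 ± 11.1 in border macrophages. The scavenger Ackr3 was highest in pericytes at 333 ± 61.7, 6.12-fold above endothelial cells (adjusted p = 3.67e-10). Capillary cells, highest in Cxcl12, also exceeded venous cells in Ackr3, 2.47-fold (adjusted p = 0.00109).

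Venous cells were set apart by another scavenger. Ackr1, the Duffy receptor of venules that binds Cxcl1 and Ccl2, stood at 361 and 299 CPM in venous cells of libraries 1 and 3 and at 2.29, 0.66 and 0.33 in capillary cells (log2 7.80, edgeR adjusted p = 1.36e-12). It was at 0 in arterial cells of all 3 libraries and in the 9 venous cells of library 2. The interferon-induced ligand Cxcl10 was 6.66-fold higher in venous than in capillary cells (adjusted p = 2.67e-08), and the membrane-bound ligand Cx3cl1 1.96-fold higher in arterial than in capillary cells (adjusted p = 0.000103).

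Among 25 other chemokine ligands 13 could be tested, and their leading classes differed from gene to gene. Pf4 led in border macrophages at 2460 ± 1171 CPM (SD, n = 2) and Cxcl14 in astrocytes at 945 ± 30.4 (SD, n = 3). Ccl11 led in fibroblasts, at 346 CPM in one library and 20.0 in the other. These values came from 63 UMIs in a mean of 6.12% of the fibroblasts of a library, and so from very few cells. Cxcl10 stood at 894 ± 315 in microglia and at 986 ± 1073 in ependymal cells (SD, n = 3), where its range was the widest. Between microglia and border macrophages 3 of the 13 were higher in either class (9% and 4.99% of all genes). Between microglia and endothelial cells 7 were higher in microglia (28.0% of all genes) and 3 in endothelial cells, a share near that of all genes (28.6%).

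Genes of the NF-kB pathway and its cytokine targets were mostly higher in microglia. Of 16 tested, 12 exceeded border macrophages (9% of all genes did), 15 astrocytes (30.1%) and 14 endothelial cells (28.0%), and the others did not pass. Of 20 immediate early and heat-shock genes, which cell dissociation is known to raise, 19 were higher in microglia than in astrocytes (30.1% of all genes), but 12 were higher in endothelial cells than in microglia (28.6%) and 2 higher in microglia (28.0%). Their summed level was 5.56%, 6.30% and 5.12% of UMIs in endothelial cells, 1.91%, 2.53% and 1.75% in microglia and 0.360%, 0.289% and 0.172% in astrocytes. The part of these genes, and of cell dissociation, in the chemokine levels was not tested.

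The genes whose levels ran most like each chemokine's, by Pearson's r of log2(CPM + 1) over 19 profiles of class and library, describe the same classes. Ccl3 and Ccl4 followed each other at 0.990 and were closest to Il4i1 at 0.966 and 0.968. Ccl12 was closest to the Fc receptor gene Fcgr3 at 0.964, Cxcl12 to the junction gene Jcad at 0.935 and Ccl2 to Abca9 at 0.898. The closest genes were weaker for Cxcl1 (Acot2, 0.811) and Cxcl5 (Gpr37, 0.860). The profiles share libraries and differ in depth, and genes were picked as the highest of all tested.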

How the data were processed

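The deposited files are raw UMI counts per gene and cell barcode, made by the authors with Cell Ranger on mm10, per the submitters' processing notes; the sources used here do not give how barcodes were chosen. Barcodes with at least 500 UMIs, 300 genes and at most 20% mitochondrial UMIs were kept, and doublets called by Scrublet (scanpy 1.11.5, assumed rate 0.06) were removed: 172, 9 and 135. Each cell took the class, of 18 marker lists, with the highest share of its markers detected, given at least 3 markers and a runner-up at no more than 50% of that share; 751, 164 and 760 cells stayed unassigned and entered no comparison. Counts were summed per class and library for profiles of at least 10 cells, and tested in edgeR 4.0.16 (R 4.3.3; TMM, filterByExpr, quasi-likelihood F-test, library as block, Benjamini-Hochberg per pair of classes) in 1 model of 19 profiles with 10 residual degrees of freedom, and for endothelial divisions in 1 of 8 profiles with 3. Profiles with the same number come from the same library, which is where the block comes from. Tested on simulated data drawn for microglia against astrocytes over 10415 genes, the fit recovered 89% of 4-fold and 8% of 2-fold changes. The simulation gave unchanged genes the same mean in every class, all genes the same spread, and no difference between libraries. Changed genes were well counted. These rates therefore do not hold for genes near 0 in a class, carried by few cells, or uneven between libraries. Binomial intervals (exact, 95%) and limits from a count of 0 (3 counts) cover counting error only. The genes and lists were chosen with earlier results of these data known. The text names the 10 chemokines, the highest gene of each list per class, called genes among the 3 largest changes of a list, and the closest genes by correlation; Ccr2, Cxcr2, Cxcr4 and Ackr3 in endothelial divisions were named as receptors of the chemokines after their values were seen. Some genes that entered the fits and counts are not reported here. Alternatives were RLE scaling, no filter on low counts, no block, DESeq2 1.42.0, each library left out, stricter cell filters, markers and profile sizes, doublets kept, adjustment over all pairs, and thinning.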

Additional observations from a re-analysis of the deposited data

Results flagged for a closer look

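Among the cells outside the 7 classes, Ccl5 reached 3935 CPM in the 13 T and NK cells of library 1 and 5311 in the 18 of library 3, both above the highest level in any of the 7 classes, 242 in microglia of library 1. Library 2 had no such cell. Cxcl2 reached 13045 CPM in 6 cells with neutrophil markers, all of library 1, where each cell held it. These values were noted because they lie in cells that no comparison used.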

How the results depend on the processing

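The 129 calls over 21 pairs of classes became 132 with RLE scaling, 141 without the filter on low counts, 117 without the replicate block and 113 with DESeq2, and 122 to 138 when each library was left out. The replicate block pairs profiles of the same library. The 4 chemokines higher in border macrophages than in microglia were 2 without the block, 1 with DESeq2 and 2 to 5 with a library left out. The 2 higher in astrocytes than in microglia were 1 to 2 with a library left out. The 1 higher in pericytes than in endothelial cells was 3 with RLE scaling, 2 without the filter, 4 with DESeq2, 2 at 20 cells per profile and 1 to 4 with a library left out. The 0 higher in endothelial cells than in fibroblasts were 1 without the filter and 0 to 1 with a library left out. The 5 higher in border macrophages than in fibroblasts were 3 with DESeq2 and 3 to 5 with a library left out. The 2 higher in fibroblasts than in border macrophages were 1 without the block and 1 with DESeq2. Ccl7 in fibroblasts against microglia reversed to a log2 of -2.39 without library 3 (edgeR adjusted p = 2.64e-06) and was 2.87 without library 1. The cause of these changes was not tested. Over 50 named tests and 512 alternatives, 459 stayed on the same side of the threshold and 43 kept the direction but lost the call. Another 9 passed where the reported test did not, and 1 reversed. A change of direction was counted only where the reported test or the alternative passed. With 20 cells per profile fibroblasts drop out. Other scaling moved the median log2 difference of all genes by -0.24 to 0.20 (RLE) and by -0.57 to 0.43 (DESeq2), depending on the pair. The 22 and 13 fibroblasts of libraries 1 and 3, and the 17 pericytes and 25 ependymal cells of library 2, limit what these profiles can show.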
